A study of Homo sapiens with 27 samples.

Results

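The comparison concerned DU145, an established human prostate carcinoma line, in which cells carrying RIPK2 gRNA 10 were set against cells carrying a control guide. Its members were the 3 libraries labelled RIPK2 gRNA 10 and the 3 control libraries of the DU145 count table, 6 of the 27 libraries of the series, and the genes tested numbered 14908. The control cells carried control gRNA 1 and were labelled WT, the gRNA 10 cells were labelled as RIPK2 knockout, and no treatment or time was given for either. The other knockout group of the line, 3 libraries labelled RIPK2 gRNA 2, entered the same model and is used for comparison; the remaining libraries came from the lines 22Rv1 and PC3. The labels give neither the guide sequences nor whether a population was a clone or a pool, and they do not say that the libraries of a group came from separate cultures, so the p-values measure the spread between these libraries, which may be technical. In total RNA from a whole culture, fewer cells expressing a gene and less RNA per cell cannot be told apart.

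RIPK2 encodes a serine/threonine kinase that docks onto NOD1 and NOD2, the cytosolic sensors of bacterial cell wall peptides. XIAP and other ubiquitin ligases attach ubiquitin chains to it, the linear ubiquitin complex extends them, and TAK1 and the I-kappa-B kinases bound to these chains release NF-kB and switch on MAP kinases. NF-kB dimers then induce chemokines, cytokines, survival genes and their own inhibitors, which makes the mRNAs of those inhibitors a common readout of the pathway.

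The NF-kB motif was located in the promoters of genes that take part in the results below, and the 6 sequences that follow are shown because each belongs to an NF-kB target that rose with gRNA 10. Promoters were at hand for 33 of the 42 higher members of the NF-kB lists, and among these they are the 2 largest rises whose promoter held a match in each of the chemokine, the feedback regulator and the remaining target lists. Each runs from 250 bases before to 50 bases after the RefSeq gene start (GRCh38.p14), 5′ to 3′ on the strand of the gene, with the match to GGNNNTTCC, searched on both strands, in capitals. CXCL5 lies on the minus strand (chr4:73998628-73998927), CXCL8 on the plus strand (chr4:73740319-73740618), BIRC3 on the plus strand (chr11:102317234-102317533), PTX3 on the plus strand (chr3:157436600-157436899), NFKBIZ on the plus strand (chr3:101827740-101828039) and TNIP3 on the minus strand (chr4:121227434-121227733).
CXCL5: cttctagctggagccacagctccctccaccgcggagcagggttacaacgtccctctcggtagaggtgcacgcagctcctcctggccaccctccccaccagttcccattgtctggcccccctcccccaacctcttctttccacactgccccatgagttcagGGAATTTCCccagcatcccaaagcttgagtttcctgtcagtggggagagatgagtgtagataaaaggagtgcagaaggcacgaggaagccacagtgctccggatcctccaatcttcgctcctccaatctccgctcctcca
CXCL8: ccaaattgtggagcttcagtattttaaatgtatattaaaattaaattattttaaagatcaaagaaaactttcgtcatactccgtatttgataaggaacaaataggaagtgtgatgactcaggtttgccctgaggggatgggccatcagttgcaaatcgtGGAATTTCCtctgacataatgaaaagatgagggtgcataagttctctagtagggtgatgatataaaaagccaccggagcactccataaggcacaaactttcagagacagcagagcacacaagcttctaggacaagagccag
BIRC3: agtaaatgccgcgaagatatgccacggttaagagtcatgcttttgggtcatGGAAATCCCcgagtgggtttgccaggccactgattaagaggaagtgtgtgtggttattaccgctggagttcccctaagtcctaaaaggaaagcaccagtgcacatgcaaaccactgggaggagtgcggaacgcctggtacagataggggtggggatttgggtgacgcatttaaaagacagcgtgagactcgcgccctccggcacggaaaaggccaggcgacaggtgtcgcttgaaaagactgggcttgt
PTX3: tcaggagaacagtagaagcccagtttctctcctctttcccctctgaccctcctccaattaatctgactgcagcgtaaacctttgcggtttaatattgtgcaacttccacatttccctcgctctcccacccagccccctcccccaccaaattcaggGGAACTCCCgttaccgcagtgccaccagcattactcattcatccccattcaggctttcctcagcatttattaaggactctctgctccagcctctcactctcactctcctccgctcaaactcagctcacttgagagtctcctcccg
NFKBIZ: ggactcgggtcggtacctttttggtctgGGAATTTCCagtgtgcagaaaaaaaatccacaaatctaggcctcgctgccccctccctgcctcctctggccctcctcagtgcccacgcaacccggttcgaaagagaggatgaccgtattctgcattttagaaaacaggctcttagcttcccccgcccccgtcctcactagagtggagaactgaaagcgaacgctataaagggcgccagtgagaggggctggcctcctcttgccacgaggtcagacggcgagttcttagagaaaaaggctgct
TNIP3: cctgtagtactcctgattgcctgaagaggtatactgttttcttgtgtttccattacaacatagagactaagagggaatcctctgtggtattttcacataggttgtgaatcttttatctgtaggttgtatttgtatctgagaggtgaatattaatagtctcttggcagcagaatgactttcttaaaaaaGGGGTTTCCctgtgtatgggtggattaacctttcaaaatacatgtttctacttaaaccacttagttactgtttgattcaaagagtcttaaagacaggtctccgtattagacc

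Among all 27305 promoters of the table, 20.1% held a match, and among the 11288 tested genes with a promoter 2598 did, or 23%. Of the members of the NF-kB lists that were higher with gRNA 10, 33 had a promoter and 20 of these held a match, or 60.6%. Of the members that were not higher, 8 of 18 did, or 44.4%. CXCL5, CXCL8 and NFKBIZ carry the same 9 letters, GGAATTTCC, which read as a match on both strands and were counted once. In CXCL5 this match starts 90 bases before the gene start and in CXCL8 91 bases before it, whereas in NFKBIZ it starts 222 bases before. A match describes the letters of this window and is not a bound site.

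RIPK2 mRNA was only slightly lower in the gRNA 10 libraries. RIPK2 (chr8:89757816-89791064, GRCh38) had 39.4, 44.4 and 43.5 CPM (counts relative to the TMM-scaled library total) in the control libraries and 36.4, 33.4 and 34.4 in the gRNA 10 libraries. Each gRNA 10 value lay below each control value, as in 34.3% of all genes tested, and the mean was 81.9% of control. The log2 fold change was -0.29 (SE 0.11) with an adjusted p of 0.0614 in edgeR's quasi-likelihood test with Benjamini-Hochberg adjustment over all genes tested, so the decrease did not pass the threshold of 0.05. Across 16 alternative fits this p ran from 0.000576 to 0.184, and it fell below the threshold with DESeq2, with only the 6 libraries, and when a gRNA 2 library (replicate 1, 2 or 3) was left out. In the gRNA 2 libraries RIPK2 stood at 9.87, 13.3 and 12.2 CPM, which was 1.56 on the log2 scale below gRNA 10 (adjusted p = 8.68e-06, edgeR). An mRNA level does not measure RIPK2 protein, and the position of the cut within the gene is not given in the labels, so the directions below are those of the libraries labelled gRNA 10.

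The 6 libraries held 19782288 to 20118973 counts each, and log2 CPM correlated at 0.994 or above between libraries of a group. The gRNA 2 replicate 3 library stood apart from its group, with correlations of 0.975 and 0.978, and it widens the spread that all tests share. DU145 markers matched the label of an epithelial line: the summed counts of EPCAM, KRT8, KRT18, KRT19 and CDH1 were 18612 to 19353 per control library and 30558 to 33337 per gRNA 10 library, the rise being that of KRT8 and KRT18. KLK3 and KLK2 had at most 1 count in any of the 6 libraries. Of 5 immune markers 1 was tested, and their summed counts were 50 to 67 in control and 46 to 58 with gRNA 10, with PTPRC at 0 or 1. The 6 fibroblast markers summed to 292 to 317 in control and 502 to 627 with gRNA 10, nearly all of it COL1A1 (271 to 290 and 474 to 599), while COL1A2 had at most 2 counts and DCN and LUM were at 0 in control. With gRNA 10, LUM had 6, 5 and 7 counts and DCN 2, 2 and 1. PDGFRA went from 0, 3 and 4 to 8, 7 and 13 counts, and PDGFRB from 12, 24 and 17 to 12, 13 and 13. The 3 endothelial markers summed to 4 to 16 in control and 18 to 33 with gRNA 10. VWF, the only 1 tested, had 7, 2 and 4 counts in control and 19, 22 and 12 with gRNA 10 (adjusted p = 0.0267, edgeR). That call ended in 4 of 15 alternative fits. The part of the immune, fibroblast and endothelial markers in the results below was not tested. Mitochondrially encoded mRNAs took 1.26% to 1.32% of counts in control and 2.46% to 2.77% with gRNA 10. The part of this shift in the results below was not tested. Leaving those genes out before scaling, which alters only the scaling and the genes tested, gave 5933 changed genes in place of 5956.

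Of 14908 genes tested, 5956 changed between gRNA 10 and control (40%), 3008 of them higher (20.2%) and 2948 lower (19.8%). A change of at least 1 on the log2 scale was reached by 1643 genes (11%), 960 of them higher (6.44%) and 683 lower (4.58%). The median log2 fold change over all genes was 0.00. A gene list in which about 40% of members were called therefore lies at the background. Groups that do not overlap are common here, 10229 genes in all (68.6%), 34.3% with every gRNA 10 library above every control library and 34.3% below. Fitted on the 6 libraries alone, 9749 of 14726 genes were called (66.2%, with 33.3% higher and 32.9% lower), and without gRNA 2 replicate 3 there were 8859 of 15176 (58.4%, with 29.4% higher and 29.0% lower). List counts from these fits are read against those shares.

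**Figure D1:**
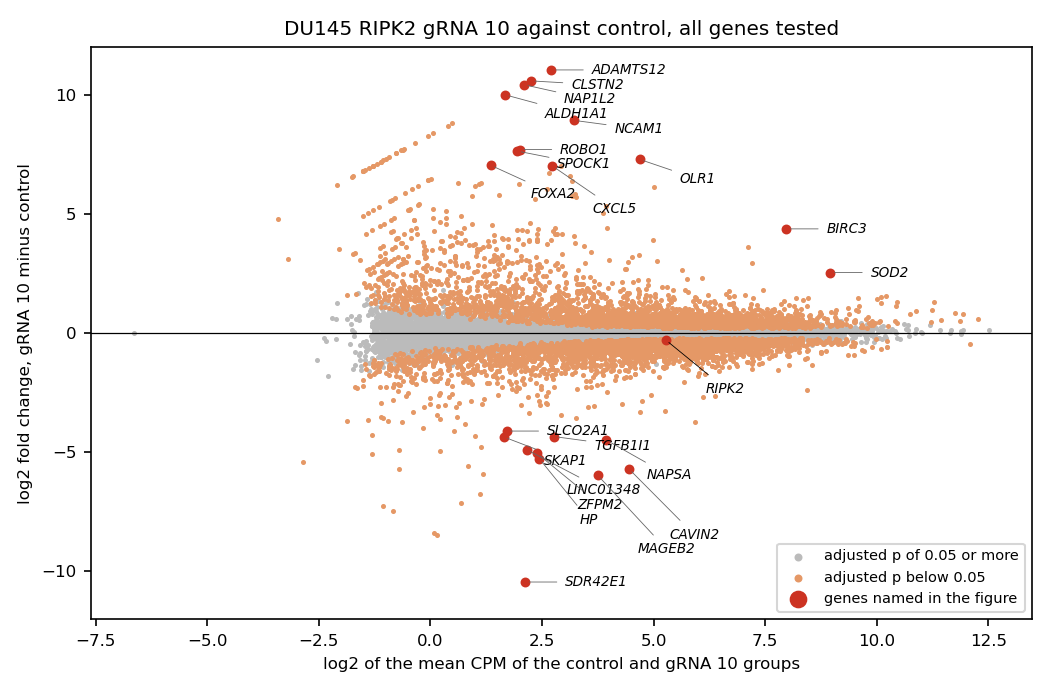
Log2 fold change of gRNA 10 minus control (vertical axis) against the log2 mean CPM of both groups (horizontal axis) for the 14908 genes tested in DU145, with genes at an adjusted p below 0.05 in orange and named genes in red. RIPK2 lies near 0, BIRC3 and SOD2 lie high among abundant genes, and fitted values beyond about 6 belong mostly to genes with almost no counts in one group, where the fitted value is not a measured fold.

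The NOD and RIPK2 signalling complex itself was called at about the background rate. Of 22 members tested, 7 were higher and 3 lower (10 of 22 against a background of 40%), and the median log2 fold change was 0.06. The largest rise was that of BIRC3, which encodes cIAP2, a ubiquitin ligase of NOD and TNF receptor complexes and itself an NF-kB target with the promoter match shown above. BIRC3 (chr11:102317484-102339403) had 24.2, 24.7 and 20.6 CPM in control and 516, 465 and 457 with gRNA 10, with no overlap between groups. Its log2 fold change was 4.37 (SE 0.13, adjusted p = 1.69e-08, edgeR). In the gRNA 2 libraries, which share the same controls, BIRC3 had 91.04, 119 and 101 CPM, and the gRNA 10 level exceeded it by 2.21 on the log2 scale (adjusted p = 7.6e-07, edgeR).

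Neighbouring BIRC2 (chr11:102347214-102378670), which encodes cIAP1, rose from 82.2, 82.03 and 76.6 CPM to 144, 129 and 133 CPM, a log2 fold change of 0.75 (SE 0.12, adjusted p = 0.000593, edgeR). OTULIN, the enzyme that removes linear ubiquitin chains, went from 34.5, 32.3 and 32.8 CPM to 58.8, 52.2 and 54.3 CPM (adjusted p = 8.99e-05, edgeR). The 2 genes thus rose without any overlap of libraries, and OTULIN also exceeded gRNA 2 (adjusted p = 0.00456), whereas BIRC2 did not differ from it beyond the threshold (adjusted p = 0.389). NOD2 (chr16:50693606-50733075), the sensor of muramyl dipeptide, had 7, 5 and 8 counts in control, 14, 27 and 25 with gRNA 10 and 2, 3 and 0 with gRNA 2. It was thus barely detected in control, and its rise of 1.76 on the log2 scale (SE 0.41, adjusted p = 0.00687, edgeR) rests on few counts. NOD1, the sensor of diaminopimelic acid peptides, had 15.1, 14.3 and 15.02 CPM in control and 11.6, 11.4 and 12.9 with gRNA 10, and its log2 fold change was -0.31 (adjusted p = 0.0382, edgeR).

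RIPK1, the kinase of the TNF receptor complex, fell from 45.1, 45.4 and 44.2 CPM to 32.8, 32.1 and 32.6 CPM, a log2 fold change of -0.47 (SE 0.08, adjusted p = 0.001497, edgeR). RBCK1, a subunit of the linear ubiquitin complex, was lower by a log2 fold change of -0.36 (adjusted p = 0.0325), and the catalytic subunit RNF31 was at -0.21 (adjusted p = 0.1604). The ubiquitin-binding adaptors of TAK1 were higher in 2 cases, TAB3 at 0.52 (adjusted p = 0.00673) and TAB2 at 0.34 (adjusted p = 0.0376), as was the ubiquitin ligase ITCH at 0.38 (adjusted p = 0.0192). XIAP, the ligase closest to RIPK2, did not pass the test (-0.25, adjusted p = 0.0592), nor did TAK1 itself, MAP3K7 (0.25, adjusted p = 0.0666); all of these values come from edgeR. XIAP was called lower and MAP3K7 higher with only the 6 libraries and without gRNA 2 replicate 2 or gRNA 2 replicate 3, XIAP also without gRNA 2 replicate 1 and MAP3K7 also with DESeq2. RNF31 was called lower with only the 6 libraries. Leaving out any one of the 6 libraries ended the call of NOD1 and of TAB2, and that of NOD1 also ended with no filter on low counts and with the replicate block. The call of ITCH ended without any one of the control libraries or gRNA 10 replicate 1, and that of RBCK1 without any one of the control libraries, gRNA 10 replicate 1 or gRNA 10 replicate 3.

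**Figure D2:**
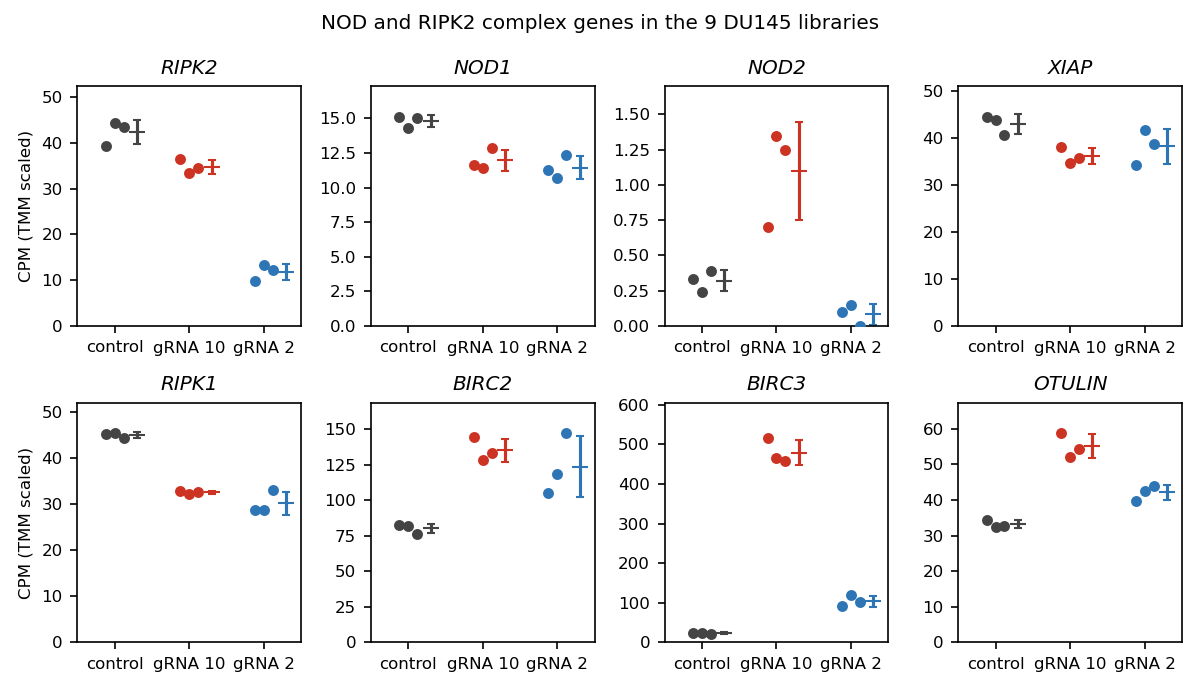
CPM (vertical axis, starting at 0) of 8 genes of the NOD and RIPK2 complex in each of the 9 DU145 libraries, with the mean and SD of each group of 3 as a bar beside the points. RIPK2 is far lower with gRNA 2 than with gRNA 10, BIRC3 is highest with gRNA 10, and BIRC2 and OTULIN lie above control in both knockout groups.

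Of 11 NF-kB subunit and kinase genes tested, 6 were higher and 0 lower (20.2% of all genes were higher), and the median was 0.52. The gRNA 2 group had 3 higher and 1 lower than control (17.1% and 17.0% of all genes), with a median of 0.16. RELB and NFKB2 encode the noncanonical dimer, and MAP3K14 encodes NIK, the kinase that activates it. RELB had 18.9, 19.4 and 22.97 CPM in control and 42.3, 47.2 and 49.4 with gRNA 10 (log2 fold change 1.18, SE 0.19, adjusted p = 0.000825, edgeR). For NFKB2 the values were 114, 111 and 118 and 218, 229 and 219 CPM (log2 fold change 0.95, SE 0.11, adjusted p = 7.12e-05, edgeR). Neither overlapped, and neither differed from gRNA 2 beyond the threshold (adjusted p = 0.363 and 0.647, edgeR).

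The 3 genes that were higher than control and also higher than gRNA 2 were REL, RELA and MAP3K14. REL went from 10.7, 10.9 and 9.66 CPM to 21.2, 21.1 and 20.9 CPM and had 8.33, 15.9 and 12.4 CPM with gRNA 2 (adjusted p against gRNA 2 = 0.00814, edgeR). RELA, the main transactivating subunit, went from 149, 148 and 155 to 219.6, 250.2 and 242 CPM, with 179.8, 153 and 183 CPM in gRNA 2 (adjusted p = 0.00261, edgeR). MAP3K14 went from 144, 140.0 and 152 to 205, 217 and 206 CPM against 135, 113 and 146 CPM in gRNA 2 (adjusted p = 0.000481, edgeR). In these 3 genes the gRNA 10 libraries lay above every library of both other groups. NFKB1, the precursor of p50, was at -0.07 (adjusted p = 0.503, edgeR), and CHUK, IKBKB and IKBKG, the I-kappa-B kinase complex, did not pass the test at 0.02, 0.06 and -0.31; IKBKG was called lower with only the 6 libraries and without gRNA 2 replicate 1 or gRNA 2 replicate 3.

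Of 15 inhibitors and feedback regulators of NF-kB tested, 8 were higher and 2 lower, with a median of 0.47, against 20.2% and 19.8% of all genes. The gRNA 2 group had 8 higher and 1 lower than control (17.1% and 17.0% of all genes), with a median of 0.44. NFKBIZ, the nuclear cofactor I-kappa-B zeta whose promoter is shown above, had 7.39, 8.05 and 6.93 CPM in control and 61.9, 59.6 and 60.02 with gRNA 10 (log2 fold change 3.02, SE 0.13, adjusted p = 2.58e-07, edgeR). ZC3H12A, the ribonuclease that degrades inflammatory mRNAs, had 13.7, 12.3 and 15.2 and 76.9, 92.6 and 88.7 CPM (log2 fold change 2.65, SE 0.13, adjusted p = 4e-07, edgeR). TNFAIP3, the deubiquitinase A20, had 11.7, 10.5 and 10.2 and 39.6, 39.8 and 37.9 CPM (log2 fold change 1.85, SE 0.11, adjusted p = 1.37e-06, edgeR). All 3 were far apart from control in every library.

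NFKBIA, the inhibitor I-kappa-B alpha, had 198, 193 and 204 CPM in control and 379.9, 410.2 and 378 with gRNA 10 (log2 fold change 0.97, SE 0.08, adjusted p = 1.51e-05, edgeR). TNIP1, the A20 partner, was higher by 1.02 (adjusted p = 9.55e-06), NFKBIE by 0.79 (adjusted p = 0.000279) and the deubiquitinase CYLD by 0.34 (adjusted p = 0.0282). TNIP3 had 2, 1 and 3 counts in control and 26, 22 and 27 with gRNA 10, a ratio of 12.98 with a 95% counting interval of 5.96 to 35.4. BCL3, a cofactor of p50 dimers, fell from 143, 137 and 150.1 CPM to 87.97, 113 and 105 CPM (log2 fold change -0.49, adjusted p = 0.00806). N4BP1, a restraint on NF-kB signalling, was at -0.30 (adjusted p = 0.0193). All p-values are from edgeR. Chromosome 16, described below, carried 2 of the 15 genes, N4BP1 and CYLD, and the tested genes on their side of its widest gap had a median of -0.44. Against gRNA 2, TNFAIP3 was lower with gRNA 10 (log2 difference -0.50, adjusted p = 0.00354), TNIP3 was higher (2.71, adjusted p = 0.000304), and NFKBIA did not differ beyond the threshold (adjusted p = 0.105). Without any one of the 6 libraries the call of CYLD ended, and that of N4BP1 ended without control replicate 1 or 2 or gRNA 10 replicate 2 or 3.

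Chemokines showed the largest list median, 1.83, with 10 of 12 tested members higher and 1 lower (20.2% and 19.8% of all genes). The gRNA 2 group had 5 higher and 3 lower than control (17.1% and 17.0% of all genes), with a median of 0.53. The neutrophil attractant CXCL5 (chr4:73995642-73998677), whose promoter match is shown above, had 2, 3 and 1 counts in control and 280, 273 and 237 with gRNA 10, a ratio of 136.7 with a 95% counting interval of 62.8 to 372.6. It also rose with gRNA 2, where it had 117, 132 and 98 counts. CXCL8 (chr4:73740569-73743716), interleukin 8, had 9.41, 10.97 and 10.4 CPM in control and 52.2, 47.6 and 45.9 with gRNA 10 (log2 fold change 2.24, SE 0.29, adjusted p = 0.000191, edgeR). CXCL2, a further ligand of the receptor CXCR2, had 23.7, 22.1 and 23.4 and 88.2, 78.9 and 76.7 CPM (log2 fold change 1.82, SE 0.17, adjusted p = 2.96e-05, edgeR). The groups did not overlap in these genes, and CXCL8 was higher still in gRNA 2, at 59.4, 79.4 and 149.9 CPM (log2 difference -0.98, adjusted p = 0.0144, edgeR).

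CCL2 and CCL5 separated the guides. CCL2, the monocyte attractant (chr17:34255285-34257203), had 3.17, 2.88 and 3.37 CPM in control, 15.2, 16.1 and 16.6 with gRNA 10 and 1.44, 1.61 and 2.16 with gRNA 2. CCL5, the T cell attractant RANTES (chr17:35871491-35880360), had 1.15, 0.863 and 0.488, 12.5, 10.5 and 10.8 and 0.595, 0.682 and 0.0553 CPM in the same order. Both were higher with gRNA 10 than in control (log2 fold change 2.35, adjusted p = 2.58e-06 and 3.75, adjusted p = 3.29e-05) and than with gRNA 2 (3.21, adjusted p = 6.54e-07 and 4.61, adjusted p = 2.09e-05, edgeR). CXCL14 had 0, 0 and 1 counts in control, 38, 34 and 41 with gRNA 10 and 1, 0 and 0 with gRNA 2, a ratio to control of 117.3 with a 95% counting interval of 21.1 to 4635. CCL28, an attractant of mucosal lymphocytes, fell from 22.5, 22.6 and 20.8 CPM to 10.6, 10.5 and 10.1 CPM (log2 fold change -1.08, SE 0.12, adjusted p = 6.62e-05, edgeR), and CXCL16 did not pass the test (-0.22, adjusted p = 0.144, edgeR). Over the 12 chemokines tested, 8 were higher with gRNA 10 than with gRNA 2 (19.6% of all genes) and 1 was lower.

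Other NF-kB targets of epithelial cells gave 18 higher and 2 lower of 26 tested (20.2% and 19.8% of all genes), with a median of 1.08. The gRNA 2 group had 17 higher and 2 lower than control (17.1% and 17.0% of all genes), with a median of 0.66. Between the guides, 11 members were higher with gRNA 10 and 7 lower (19.6% and 19.2% of all genes). SOD2, the mitochondrial superoxide dismutase, had 147, 146 and 146 CPM in control and 863, 849.5 and 837 with gRNA 10 (log2 fold change 2.54, SE 0.22, adjusted p = 1.83e-05, edgeR). C3, the central complement component, had 22.03, 18.8 and 22.5 and 258, 259.8 and 247 CPM (log2 fold change 3.59, SE 0.52, adjusted p = 0.000395, edgeR). With gRNA 2, C3 was higher than control by 3.10 on the log2 scale, and the guides did not differ beyond the threshold (adjusted p = 0.423, edgeR). The acute phase gene SAA1 had 1.01, 0.863 and 1.22 and 17.01, 17.8 and 17.7 CPM, and its close paralog SAA2 had 5, 2 and 2 and 46, 41 and 44 counts, with the caution that reads shared by the pair may have been split between them. In all 4 genes every gRNA 10 library exceeded every control library.

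PDZK1IP1, which encodes a small membrane protein of epithelia, had 1.49, 1.198 and 1.46 CPM in control and 29.1, 31.2 and 28.9 with gRNA 10 (log2 fold change 4.42, SE 0.42, adjusted p = 2.74e-05, edgeR). PTX3, the secreted long pentraxin, had 0.864, 0.958 and 0.7804 and 5.03, 4.14 and 4.502 CPM (log2 fold change 2.38, SE 0.19, adjusted p = 7.83e-06, edgeR). The exceptions were PLAU, the urokinase plasminogen activator, which fell from 327, 333 and 333 CPM to 111, 114 and 115 CPM, and STEAP4, a metalloreductase, which fell from 5.42, 5.56 and 5.12 CPM to 1.51, 1.297 and 1.2005 CPM. PLAU took opposite directions with the guides: it was -1.55 with gRNA 10 and 0.97 with gRNA 2 on the log2 scale, and the difference between the guides was -2.52 (adjusted p = 4.01e-07, edgeR).

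**Figure D3:**
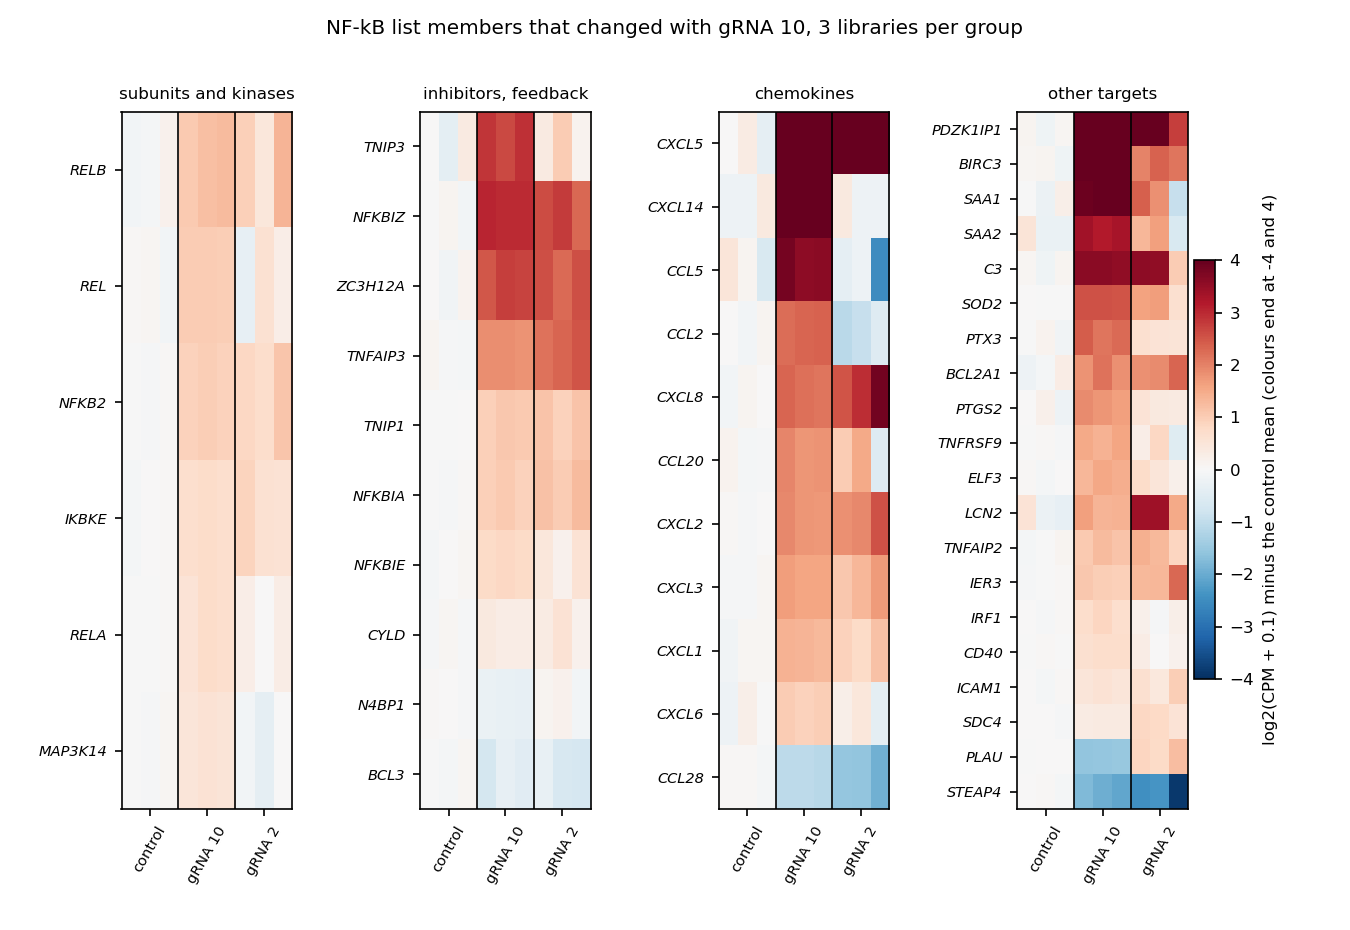
Log2(CPM + 0.1) minus the mean of the 3 control libraries (colour, ending at -4 and 4) for the members of the 4 NF-kB lists that changed with gRNA 10, in rows, across the 9 DU145 libraries, in columns. The 3 gRNA 10 libraries look alike in each row; CCL2, CCL5 and CXCL14 are red with gRNA 10 only, and PLAU is blue with gRNA 10 and red with gRNA 2.

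Of 12 cytokines tested, 2 were higher and 2 lower (4 of 12 called, below the background of 40%), with a median of -0.16. IL6, interleukin 6, rose from 11.9, 11.7 and 12.5 CPM to 29.7, 29.7 and 27.1 CPM (log2 fold change 1.26, SE 0.26, adjusted p = 0.00343, edgeR), and EBI3, a subunit of interleukins 27 and 35, had 6, 9 and 10 and 32, 31 and 45 counts (adjusted p = 0.00131, edgeR). CSF1, the macrophage colony-stimulating factor, fell from 148, 149 and 164 CPM to 62.05, 74.2 and 66.2 CPM (log2 fold change -1.19, SE 0.12, adjusted p = 5.53e-05, edgeR). IL24 had 12, 11 and 8 counts in control, 0, 1 and 1 with gRNA 10 and 178, 199 and 83 with gRNA 2, so that the guides lay on opposite sides of control.

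Among 23 receptors and adaptors of the IL-1, TNF, IL-6 and Toll-like families, 7 were higher and 4 lower, with a median of 0.24. The share called was 11 of 23, against 40% of all genes. LIFR, the receptor for leukaemia inhibitory factor, rose from 46.6, 45.5 and 48.4 CPM to 174, 149.6 and 157 CPM (log2 fold change 1.77, SE 0.19, adjusted p = 5.87e-05, edgeR). IL18R1, a chain of the interleukin 18 receptor, rose from 2.21, 1.77 and 1.805 to 10.7, 9.88 and 9.45 CPM, and TLR5, the flagellin receptor, from 1.63, 1.82 and 0.878 to 5.79, 5.39 and 6.05 CPM (adjusted p = 2.41e-06 and 0.001799, edgeR). TLR2, the lipoprotein receptor, had 2, 0 and 3 and 34, 17 and 20 counts. In the other direction MYD88, the adaptor of nearly all Toll-like receptors, had 53.7, 54.6 and 54.3 CPM in control and 20.6, 20.9 and 18.3 CPM with gRNA 10 (log2 fold change -1.44, SE 0.12, adjusted p = 1.01e-05, edgeR); this gene was singled out after its values were seen.

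Interferon-stimulated genes gave 12 higher and 1 lower of 34 tested (20.2% and 19.8% of all genes), with a median of 0.18. The share called, 13 of 34, was at about the background of 40%. IFI44 rose from 1.68, 1.58 and 1.61 CPM to 6.54, 5.69 and 6.35 CPM (log2 fold change 1.93, SE 0.25, adjusted p = 0.000188, edgeR). GBP1, a guanylate-binding protein, had 8, 8 and 6 counts in control and 19, 27 and 29 with gRNA 10, and CMPK2 had 2, 2 and 0 and 18, 17 and 17. These 3 genes are scarce in DU145. OAS3, an abundant antiviral synthetase, rose by less, from 94.5, 93.5 and 94.8 CPM to 108, 116 and 111 CPM (log2 fold change 0.24, adjusted p = 0.0159, edgeR). Other abundant members did not pass the test: IFIT1 had a mean of 37.5 CPM (SD 1.03) in control and 40.5 (SD 2.45) with gRNA 10, and MX1 28.2 (SD 0.724) and 24.3 (SD 2.34), n = 3 each. Against gRNA 2, 16 of the 34 were higher with gRNA 10 and 0 were lower (19.6% and 19.2% of all genes). The gRNA 2 group itself had 3 higher and 15 lower than control (17.1% and 17.0% of all genes), with a median of -0.45. Fitted on the 6 libraries alone the list had 17 higher and 9 lower of 34 (33.3% and 32.9% of all genes), and without gRNA 2 replicate 3 it had 16 higher and 4 lower of 36 (29.4% and 29.0% of all genes).

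MHC class I antigen presentation gave 8 higher and 2 lower of 18 (20.2% and 19.8% of all genes), with a median of 0.21. CANX, the chaperone calnexin, rose from 636, 604 and 610.4 CPM to 880.2, 822 and 855 CPM (log2 fold change 0.47, SE 0.08, adjusted p = 0.00125, edgeR). NLRC5, the class I transactivator on chromosome 16 (chr16:56989557-57083520), fell from 16.2, 17.3 and 17.7 CPM to 10.1, 12.7 and 9.95 CPM (log2 fold change -0.64, adjusted p = 0.00644, edgeR). Against gRNA 2, 9 of the 18 were higher with gRNA 10 and 0 were lower (19.6% and 19.2% of all genes). The gRNA 2 group itself had 3 higher and 4 lower than control, with a median of -0.12.

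**Figure D4:**
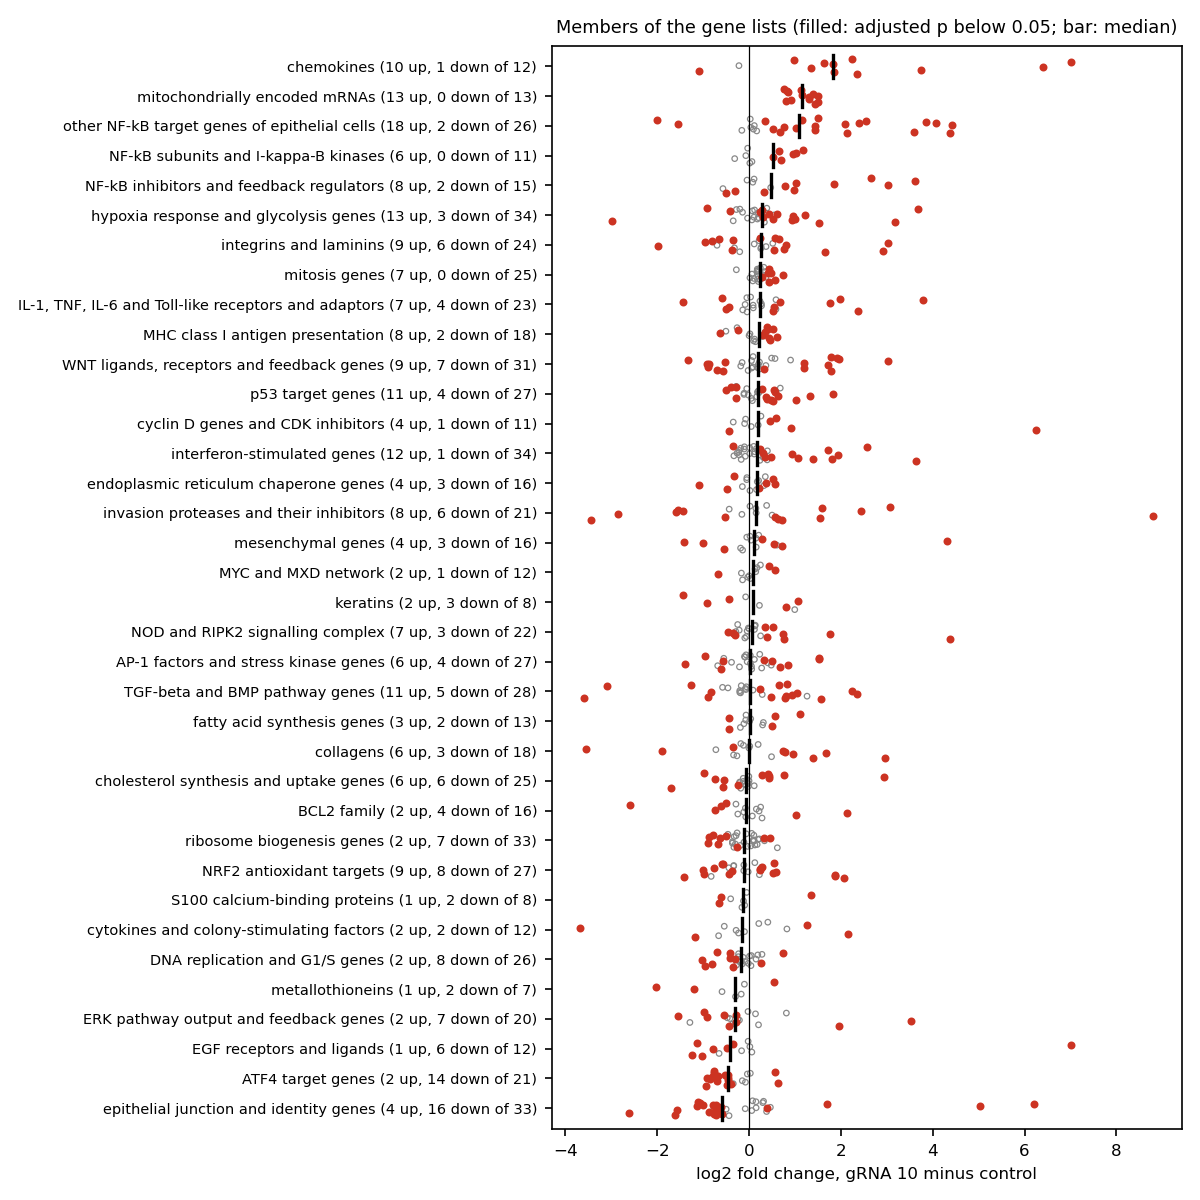
Log2 fold change of gRNA 10 minus control (horizontal axis) for each tested member of the gene lists with 7 or more tested members (rows, ordered by the median, a black bar), filled where the adjusted p is below 0.05. Chemokines, mitochondrially encoded mRNAs and other NF-kB targets have the highest medians, and epithelial junction genes and ATF4 targets the lowest.

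Epithelial junction and identity genes were lower in 16 of 33 tested cases and higher in 4, with a median of -0.59, against 19.8% of all genes lower. CLDN7, a tight junction claudin, fell from 8.399, 8.05 and 10.6 CPM to 1.31, 1.596 and 1.501 CPM (log2 fold change -2.61, SE 0.19, adjusted p = 4.5e-06, edgeR). The 20 members lower with gRNA 10 than with gRNA 2, against 2 that were higher (19.2% and 19.6% of all genes), included CLDN7 (log2 difference -1.96, adjusted p = 4.04e-05). CDH1, E-cadherin, and EPCAM did not pass the test, with 23.8, 18.7 and 17.9 and 14.4, 15.9 and 14.5 CPM for CDH1 and 59.7, 56.01 and 58.5 and 35.9, 29.7 and 36.4 CPM for EPCAM (adjusted p = 0.185 and 0.0542, edgeR). Their gRNA 10 libraries all lay below control, as in 34.3% of all genes tested. Chromosome 16, described below, carried 5 of the 33 genes.

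The epithelial genes that rose were headed by MAL2, a protein of apical transport, which had 0.864, 0.575 and 1.17 CPM in control and 28.5, 28.1 and 28.6 with gRNA 10 (log2 fold change 5.02, SE 0.18, adjusted p = 5.14e-08, edgeR). PKP2, a desmosomal plakophilin, rose from 6.53, 6.32 and 6.34 to 21.1, 20.5 and 20.8 CPM (log2 fold change 1.70, adjusted p = 3.35e-06, edgeR). PKP1 had 0, 0 and 0 counts in control and 7, 11 and 9 with gRNA 10, at least 3.11-fold higher against a floor of 3 counts per library. With PKP1 at this bound the median of the list is the same. MAL2 rose further with gRNA 2, where it had 61.9, 74.4 and 64.3 CPM (adjusted p of the difference 5.15e-05, edgeR).

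Keratins split. Of 8 tested, 2 were higher and 3 lower (20.2% and 19.8% of all genes), with a median of 0.08. KRT8, a keratin of simple epithelia, rose from 413, 419.9 and 440.5 CPM to 826, 940.1 and 903 CPM and KRT7 fell from 895, 933 and 1003 CPM to 487, 511 and 496 CPM (log2 fold change 1.07, adjusted p = 0.000559 and -0.92, adjusted p = 3.64e-05, edgeR). KRT7 was also lower than with gRNA 2, by a log2 difference of -1.26 (adjusted p = 6.97e-06, edgeR). Mesenchymal genes were higher in 4 and lower in 3 of 16 cases, with a median of 0.10. VIM, vimentin, and ZEB1, a repressor of E-cadherin, did not pass the test, at -0.05 (adjusted p = 0.848) and 0.02 (adjusted p = 0.915), and TAGLN, an actin-binding protein, fell from 10.8, 12.03 and 11.02 to 4.18, 3.79 and 4.65 CPM (adjusted p = 0.000329, edgeR).

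Invasion proteases and their inhibitors changed in both directions, 8 higher and 6 lower of 21 tested (20.2% and 19.8% of all genes). MMP14, the membrane-bound collagenase that activates other proteases (chr14:22836585-22847758), fell from 46.6, 42.98 and 51.8 CPM to 5.28, 6.33 and 8.05 CPM (log2 fold change -2.84, SE 0.16, adjusted p = 1.01e-06, edgeR). ADAM12, a metalloprotease of the cell surface, fell from 13.2, 14.8 and 13.5 to 1.26, 1.55 and 1.0004 CPM (log2 fold change -3.44, SE 0.20, adjusted p = 1.34e-06, edgeR). With gRNA 2 the levels were 39.7, 35.1 and 43.2 CPM for MMP14 and 5.95, 6.52 and 4.42 CPM for ADAM12, both above gRNA 10 (adjusted p = 2.22e-06 and 4.09e-05, edgeR). SERPINE2, an inhibitor of urokinase and thrombin, rose from 3.17, 3.98 and 3.02 to 31.96, 27.9 and 25.4 CPM (log2 fold change 3.06, SE 0.15, adjusted p = 4e-07, edgeR). ADAMTS1 had 0, 0 and 0 counts in control and 64, 50 and 52 with gRNA 10, at least 19.2-fold higher.

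Of 24 integrins and laminins, 9 were higher and 6 lower, and of 18 collagens 6 were higher and 3 lower (20.2% and 19.8% of all genes). COL12A1, a fibril-associated collagen (chr6:75084326-75206053), rose from 35.8, 32.7 and 33.2 CPM to 292, 241 and 255 CPM (log2 fold change 2.95, SE 0.13, adjusted p = 1.85e-07, edgeR), while gRNA 2 had 31.2, 42.2 and 33.7 CPM (adjusted p of the difference 2.44e-07). ITGB8, the integrin subunit that activates latent TGF-beta, rose from 0.528, 0.958 and 0.634 to 6.14, 6.28 and 5.102 CPM (log2 fold change 3.04, adjusted p = 8.25e-05), and ITGB2, the leukocyte integrin subunit, fell from 27.5, 26.4 and 30.7 to 6.19, 8.03 and 7.103 CPM (log2 fold change -1.99, adjusted p = 9.83e-05, edgeR). COL5A1 fell from 56, 56 and 61 counts to 4, 6 and 4 counts (adjusted p = 2.96e-05, edgeR).

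TGF-beta and BMP pathway genes gave 11 higher and 5 lower of 28 (20.2% and 19.8% of all genes), with a median of 0.01. Among the ligands, TGFB2 fell from 20.3, 22.04 and 19.3 CPM to 2.37, 2.09 and 2.701 CPM (log2 fold change -3.10, SE 0.30, adjusted p = 3.61e-05, edgeR), and INHBA, the activin A subunit, had 3, 3 and 3 counts in control and 13, 16 and 17 with gRNA 10. PMEPA1, an inhibitor of SMAD signalling that the pathway induces, rose from 3.17, 3.02 and 3.76 CPM to 15.6, 15.96 and 15.9 CPM (log2 fold change 2.25, SE 0.13, adjusted p = 1.29e-06, edgeR). Of 31 WNT pathway genes, 9 were higher and 7 lower. WNT7B, a WNT ligand, rose from 16.3, 16.5 and 16.4 to 56.7, 69.9 and 60.4 CPM (log2 fold change 1.93, adjusted p = 8.24e-06, edgeR), WNT4 went from 10, 20 and 22 counts to 52, 78 and 67, and the secreted antagonist WIF1 went from 4, 7 and 7 counts to 60, 41 and 43. On the 6 libraries alone the WNT list had 17 of 31 higher, where 33.3% of all genes were higher.

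EGF receptors and ligands were lower in 6 of 12 cases and higher in 1 (19.8% and 20.2% of all genes), with a median of -0.41. AREG, amphiregulin, fell from 111, 108 and 108 CPM to 58.1, 50.9 and 52.1 CPM (log2 fold change -1.02, SE 0.09, adjusted p = 2.56e-05, edgeR), BTC, betacellulin, was at -1.24 (adjusted p = 0.000178) and NRG4 at -1.14 (adjusted p = 0.00413). NRG1, neuregulin 1, had 0, 0 and 0 counts in control, 14, 18 and 16 with gRNA 10 and 0, 0 and 0 with gRNA 2, at least 5.54-fold higher than control, and at this bound the median is the same. EGFR itself did not pass the test (0.06, adjusted p = 0.697, edgeR). Of 20 ERK output and feedback genes, 7 were lower and 2 higher (9 of 20 called against a background of 40%), with a median of -0.30. SPRY2, a feedback inhibitor of receptor tyrosine kinases, fell from 49.2, 50.1 and 50.4 CPM to 25.01, 26.2 and 24.6 CPM (log2 fold change -0.98, adjusted p = 5.23e-05) and PHLDA2 from 26.5, 31.8 and 35.4 to 9.26, 12.3 and 10.5 CPM (adjusted p = 0.000541, edgeR). Compared with gRNA 2 (19.2% of all genes lower), 16 of the 20 ERK genes were lower with gRNA 10 and 1 was higher. Without gRNA 2 replicate 3 the ERK list had 14 of 20 lower against control, where 29.0% of all genes were lower.

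ATF4 targets are the genes of amino acid synthesis and tRNA charging induced in the integrated stress response. They were lower in 14 of 21 cases and higher in 2 (19.8% and 20.2% of all genes), with a median of -0.46. PHGDH, the entry enzyme of serine synthesis (chr1:119711934-119744215), fell from 323, 323 and 351 CPM to 167, 185 and 173 CPM (log2 fold change -0.93, SE 0.10, adjusted p = 6.53e-05, edgeR). PSAT1, the next enzyme of that route, fell from 521, 556 and 567 to 314, 319 and 307 CPM (log2 fold change -0.81, SE 0.10, adjusted p = 0.000175, edgeR). The methionyl-tRNA synthetase MARS1 fell from 542, 531 and 577 to 304, 316 and 299.6 CPM (log2 fold change -0.84, SE 0.10, adjusted p = 0.000112, edgeR). All gRNA 10 libraries lay below all control libraries in these 3 genes.

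AARS1, the alanyl-tRNA synthetase, also fell, from 859, 818 and 893 CPM to 447, 454 and 439.6 CPM, and it is 1 of the 2 members on chromosome 16 (chr16:70252298-70289506). ATF4 mRNA itself was at -0.39 (adjusted p = 0.00524, edgeR), while the transporter SLC7A5 did not pass the test at 0.03 (adjusted p = 0.852). In gRNA 2, which shares the controls, the median of the list was 0.39. Between the guides, 18 of the 21 genes were lower with gRNA 10 and 0 were higher (19.2% and 19.6% of all genes), PSAT1 by a log2 difference of -1.41 (adjusted p = 7.79e-06, edgeR). Over the alternative fits, 13 to 15 members were called lower than control and 2 higher.

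Hypoxia response and glycolysis genes gave 13 higher and 3 lower of 34 (20.2% and 19.8% of all genes), with a median of 0.28. ALDOC, an aldolase (chr17:28573120-28576895), rose from 4.85, 4.12 and 4.54 CPM to 40.1, 44.8 and 38.2 CPM (log2 fold change 3.19, SE 0.25, adjusted p = 9.04e-06, edgeR), and SLC2A3, a glucose transporter, went from 4, 6 and 6 counts to 76, 66 and 61. ADM, adrenomedullin, rose from 32.7, 30.4 and 30.6 to 88.4, 92.4 and 88.9 CPM (adjusted p = 0.0118, edgeR), a call that ended with no filter on low counts. ANGPTL4, an inhibitor of lipoprotein lipase, moved the other way, from 38.6, 31.7 and 33.99 to 4.73, 4.29 and 4.202 CPM (log2 fold change -2.98, SE 0.34, adjusted p = 9.72e-05, edgeR). Without gRNA 2 replicate 3 the list had 21 of 34 higher, where 29.4% of all genes were higher, and on the 6 libraries alone it had 24, against 33.3% of all genes.

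All 13 mitochondrially encoded mRNAs were higher (20.2% of all genes), with a median of 1.15 (0.77 with gRNA 2). MT-ND1, a subunit of complex I, rose from 553, 584 and 581 CPM to 1635, 1474 and 1740.3 CPM (log2 fold change 1.5, SE 0.10, adjusted p = 3.09e-06, edgeR). MT-ATP6, a subunit of the ATP synthase, rose from 560.3, 579 and 539.6 to 1548, 1406 and 1556 CPM (log2 fold change 1.43, SE 0.18, adjusted p = 0.000143, edgeR). Libraries selected for polyadenylated RNA also register RNA quality in this share, and its part was not tested.

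Among the cell cycle lists, mitosis genes were higher in 7 of 25 cases and lower in 0 (20.2% and 19.8% of all genes), with a median of 0.24. The share called, 7 of 25, was below the background of 40% in this fit. Its rises were led by CENPE, a kinetochore motor (0.75, adjusted p = 0.001998), and the checkpoint kinase BUB1 (0.56, adjusted p = 0.000271, edgeR). DNA replication and G1/S genes were lower in 8 of 26 and higher in 2, with a median of -0.18. With 10 of 26 called, that list was at about the background. Chromosome 16, described below, carried 3 of the 26. RRM2, the ribonucleotide reductase subunit, rose from 266, 282 and 271 CPM to 463, 453 and 450.0 CPM (adjusted p = 0.000147), whereas CCNE2, cyclin E2, fell from 25.4, 26.9 and 25.02 CPM to 14.996, 12.8 and 12.3 CPM (adjusted p = 0.000467, edgeR). CCND2, cyclin D2 (chr12:4273762-4305353), had 2, 1 and 3 counts in control, 161, 147 and 156 with gRNA 10 and 2, 0 and 0 with gRNA 2, a ratio to control of 80.3 with a 95% counting interval of 36.9 to 218.8. Without gRNA 2 replicate 3 the mitosis list had 18 of 25 higher and the G1/S list 14 of 26 lower, where 29.4% of all genes were higher and 29.0% lower.

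MYC, the growth-promoting transcription factor, had 83.9, 81.8 and 88.7 CPM in control, 111, 119 and 114 with gRNA 10 and 144, 145 and 209 with gRNA 2. Its rise with gRNA 10 was 0.44 on the log2 scale (SE 0.13, adjusted p = 0.0239, edgeR), a call that ended when any one of the 6 libraries was left out, and it was lower than with gRNA 2 (log2 difference -0.53, adjusted p = 0.00965). Ribosome biogenesis genes, a class that MYC drives, were higher in 2 and lower in 7 of 33 cases, a share of 9 of 33 below the background of 40%, with a median of -0.11. This place below the background did not hold without gRNA 2 replicate 3, where they had 6 higher and 16 lower of 33 and 58.4% of all genes were called.

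Stress lists changed in both directions, in the main fit the p53 and NRF2 lists in more of their members than the 40% of all genes. Without gRNA 2 replicate 3 the p53 list had 12 higher and 5 lower, where 58.4% of all genes were called. On the 6 libraries alone it had 14 higher and 5 lower, where 66.2% of all genes were called. Of 27 p53 targets 11 were higher and 4 lower (15 of 27 called). PLK2, a polo-like kinase, rose from 76.2, 78.1 and 75.6 CPM to 287, 257 and 270.2 CPM (log2 fold change 1.83, adjusted p = 1.84e-07, edgeR) and BBC3, the death-promoting PUMA, was at 1.03 (adjusted p = 0.00112). CDKN1A and BAX did not pass the test, at 0.05 and 0.07 (adjusted p = 0.771 and 0.711, edgeR). DDB2 was lower, at -0.28 (adjusted p = 0.0316, edgeR). Of 27 NRF2 antioxidant targets 9 were higher and 8 lower (17 of 27 called). ABCC2, an efflux transporter, rose from 3.26, 4.41 and 4.29 to 17.9, 16.01 and 16.6 CPM and its relative ABCC3 fell from 154, 145 and 149 to 55.9, 58.5 and 54.9 CPM (adjusted p = 1.08e-05 and 0.0002601, edgeR). AKR1C1 and AKR1C2, near-identical aldo-keto reductases whose reads may have been split, were at 1.86 and 1.88. Of 27 AP-1 and stress kinase genes 6 were higher and 4 lower (10 of 27 called), among them the stress sensor GADD45B, which fell from 114, 114 and 118 CPM to 40.8, 42.2 and 47.7 CPM (log2 fold change -1.40, adjusted p = 5.45e-05, edgeR).

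The lists of this paragraph are read against 20.2% of all genes higher and 19.8% lower. Cholesterol genes gave 6 higher and 6 lower of 25, with CYP51A1, a sterol demethylase, at -1.70 and SQLE, squalene epoxidase, at 0.76 (adjusted p = 0.000294 and 0.004702, edgeR). Fatty acid genes gave 3 higher and 2 lower of 13, and SREBF1, the regulator of lipid synthesis, rose from 46.03, 44.4 and 50.1 to 88.9, 114 and 102 CPM (adjusted p = 0.000192, edgeR). Endoplasmic reticulum chaperone genes gave 4 higher and 3 lower of 16; HSP90B1, the chaperone GRP94, was at 0.56 and HERPUD1, a degradation factor on chromosome 16, at -1.08 (adjusted p = 0.000769 and 4.15e-06, edgeR). The BCL2 family gave 2 higher and 4 lower of 16, BCL2A1, a survival factor and NF-kB target, at 2.13 and HRK, a death-promoting member, at -2.60 (adjusted p = 0.000185 and 8.46e-05, edgeR). Cyclin D and CDK inhibitor genes gave 4 higher and 1 lower of 11, S100 genes 1 and 2 of 8, the MYC and MXD network 2 and 1 of 12, and the metallothioneins, all 7 on chromosome 16, 1 and 2. The smallest lists were androgen targets (2 higher of 5), neuroendocrine genes (1 higher of 3) and cancer-testis antigens (1 higher and 1 lower of 2).

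The largest rises over all genes were in transcripts that were scarce or undetected in control cells. Under the rule of a mean of at least 100 counts in the higher group and no overlap, the 10 largest were ADAMTS12, CLSTN2, NAP1L2, ALDH1A1, NCAM1, ROBO1, SPOCK1, OLR1, FOXA2 and CXCL5. ADAMTS12, a secreted metalloprotease (chr5:33523535-33891990), had 0, 0 and 0 counts in control, 281, 246 and 256 with gRNA 10 and 0, 0 and 0 with gRNA 2, at least 90.3-fold higher than control. CLSTN2, a synaptic calsyntenin, was at least 65.6-fold higher, NAP1L2 on the X chromosome at least 58.9-fold and ALDH1A1, a retinal dehydrogenase, at least 43.8-fold, each with 0 counts in all control and all gRNA 2 libraries. NCAM1, the neural cell adhesion molecule (chr11:112961420-113278436), had 1, 0 and 1 counts in control, 390, 392 and 332 with gRNA 10 and 0, 0 and 0 with gRNA 2. OLR1, the receptor for oxidised LDL (chr12:10158301-10176266), had 0.384, 0.335 and 0.244 CPM in control and 53.4, 50.3 and 49.7 with gRNA 10 (log2 fold change 7.29, SE 0.20, adjusted p = 9.63e-09, edgeR). FOXA2, a pioneer factor of endoderm, had 1, 0 and 1 and 102, 97 and 103 counts, and gRNA 2 had 11, 4 and 6.

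The 10 largest falls were SDR42E1, MAGEB2, CAVIN2, HP, ZFPM2, LINC01348, NAPSA, SKAP1, TGFB1I1 and SLCO2A1. Of these, SDR42E1, HP and TGFB1I1 lie on chromosome 16, described below. SDR42E1, a short-chain dehydrogenase on chromosome 16, had 185, 187 and 167 counts in control and 0, 0 and 0 with gRNA 10, at least 57.7-fold lower, and 0, 1 and 0 with gRNA 2. MAGEB2, a cancer-testis antigen on the X chromosome, fell from 28.1, 24.96 and 26.05 CPM to 0.453, 0.399 and 0.4002 CPM (log2 fold change -5.96, SE 0.15, adjusted p = 9.63e-09, edgeR), and CAVIN2, a caveolar coat protein, from 41.7, 44.8 and 41.7 to 0.604, 1.197 and 0.6503 CPM. HP, haptoglobin, varied within the group, with 14, 2 and 0 counts against 270, 213 and 175 in control. NAPSA, an aspartic protease, fell from 29.6, 29.9 and 28.2 CPM to 1.26, 1.15 and 1.501 CPM (adjusted p = 4.5e-06, edgeR). ZFPM2, a cofactor of GATA factors, stood out by guide: it had 212, 224 and 197 counts in control, 5, 12 and 1 with gRNA 10 and 178, 183 and 170 with gRNA 2.

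Between the guides themselves 5789 of 14908 genes differed (38.8%), 2929 higher (19.6%) and 2860 lower (19.2%) with gRNA 10. The genes that changed against control and lay beyond gRNA 2 in the same direction numbered 3065 (20.6%), 1594 higher (10.7%) and 1471 lower (9.87%). Those furthest above gRNA 2 were NCAM1, ADAMTS12, TMEM178B, CLSTN2 and NAP1L2; TMEM178B, a membrane protein, had 4, 4 and 3 counts in control, 225, 254 and 244 with gRNA 10 and 0, 0 and 0 with gRNA 2. Those furthest below were ZFPM2, LINC00707, ADAM8, SFTA1P and CST6. LINC00707, a long noncoding RNA, had 21.2, 19.2 and 19.8 CPM in control, 3.77, 4.14 and 4.602 with gRNA 10 and 52.7, 60.2 and 65.7 with gRNA 2 (adjusted p between guides 5.33e-08, edgeR). CST6, a cysteine protease inhibitor, had 17.04, 17.3 and 19.1, 3.52, 4.79 and 4.85 and 36.7, 25.3 and 57.99 CPM in that order, so that the guides lay on opposite sides of control in both genes. ADAM8 followed the same order at a smaller fall against control (-0.53, adjusted p = 0.0424), a call that ended without control replicate 2 or 3 or without gRNA 10 replicate 1, 2 or 3.

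The lines 22Rv1 and PC3 received the same guide, and the difference of its effect between lines was tested for 16322 genes in 1 model. The effect in DU145 differed from that in 22Rv1 for 7300 genes (44.7%) and from that in PC3 for 7843 genes (48.1%). RIPK2 was among both, with a log2 fold change of -1.63 in 22Rv1 (adjusted p = 2.13e-06) and of -1.15 in PC3 (adjusted p = 2.81e-18, edgeR).

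Changes also ran in blocks along chromosomes. Of 654 tested genes on chromosome 16, 355 were lower (54.3%) and 27 higher (4.13%), against 19.8% and 20.2% of all genes, with a median log2 fold change of -0.43. The genes on either side of the widest gap between tested genes, from position 35170391 to 46578591, had medians of -0.40 (356 genes) and -0.44 (298 genes). Relative to the control mean, the median over the chromosome was -0.48, -0.40 and -0.41 in the gRNA 10 libraries, between -0.02 and 0.03 in the control libraries, and -0.11, -0.19 and -0.04 in the gRNA 2 libraries. Between the guides, 291 of the 654 genes were lower with gRNA 10 and 42 higher, against 19.2% and 19.6% of all genes. The same guide in the other lines, each against its own controls, gave chromosome 16 medians of 0.05 in 22Rv1 (609 genes) and 0.28 in PC3 (606 genes). In PC3 the sides of the gap differed, with medians of 0.46 before it (338 genes) and -0.08 after it (268 genes).

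Smaller blocks lay elsewhere. Those given here are not all of them and are on chromosomes singled out after their values were seen. Over all genes, 20.2% were higher and 19.8% lower than control. On chromosome 11 the genes up to position 48170839 had a median of -0.38, with 130 of 263 lower, and the genes beyond had a median of 0.17, with 161 of 544 higher; for gRNA 2 these medians were -0.28 and 0.12. On chromosome 7 the genes from position 64499069 onward had a median of -0.33 (207 of 482 lower) and -0.10 with gRNA 2. Chromosome 21 had a median of -0.32 (64 of 144 lower, and -0.11 with gRNA 2) and chromosome 18 one of -0.19 (78 of 212 lower, and -0.03 with gRNA 2). The genes of chromosome 3 up to position 81761645 had a median of -0.23 (147 of 405 lower, and -0.33 with gRNA 2). Chromosome 20 had a median of 0.34 (185 of 402 higher, and 0.23 with gRNA 2), chromosome 12 up to position 34028302 one of 0.36 (87 of 187 higher, and 0.28 with gRNA 2), and the X chromosome from position 147911919 one of 0.40 (33 of 69 higher, against -0.16 with gRNA 2). OLR1, SLC2A3, CCND2 and PKP2 lie in the first stretch of chromosome 12. These positions are from RefSeq on GRCh38.p14, and their part in the changes of single genes was not tested.

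**Figure D5:**
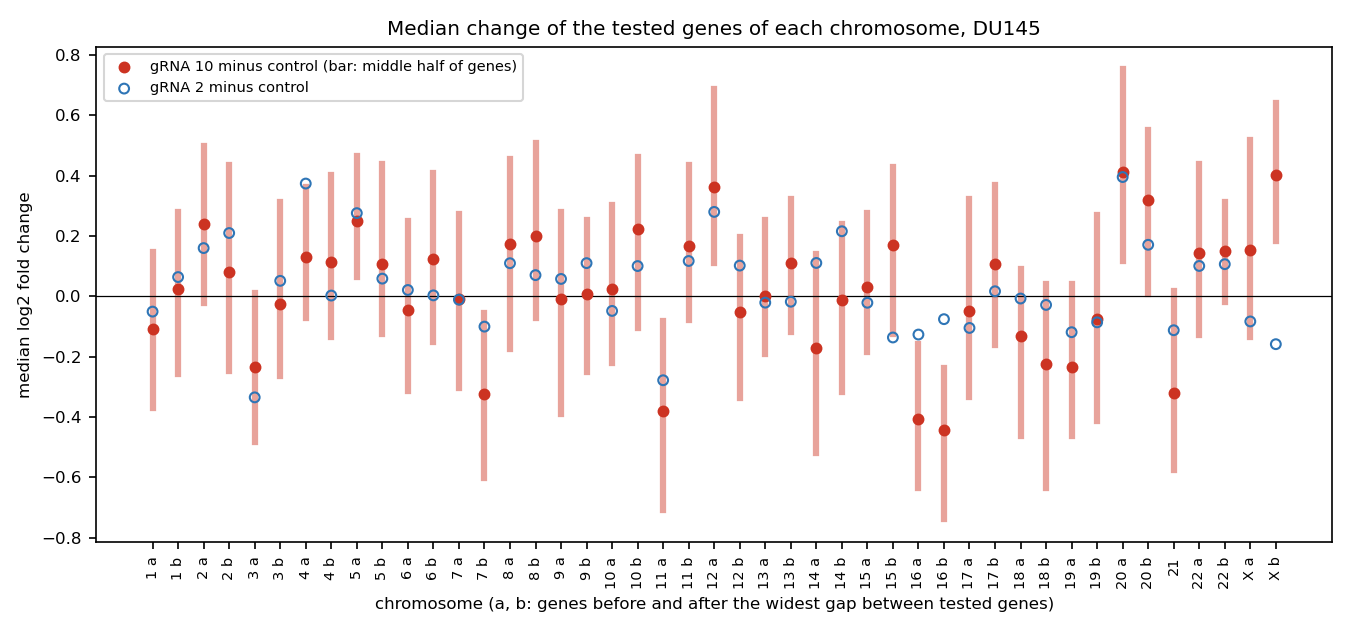
Median log2 fold change of the tested genes of each chromosome (vertical axis), split into a and b at the widest gap between tested genes (horizontal axis), for gRNA 10 minus control with the interquartile range of genes as a bar and for gRNA 2 minus control as open circles. Both sides of chromosome 16 lie near -0.4 with gRNA 10 and near -0.1 with gRNA 2.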

How the data were processed

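Total RNA was extracted with a silica column kit and sequenced on a DNBSEQ platform from strand-specific mRNA libraries as paired reads of 150 bases, per the labels' protocols. The authors deposited a table of whole-number read counts per gene symbol for each line, with no normalization, per the file headers and values. The submitters' processing notes name FastQC, STAR, edgeR and the build hg38, without versions. The counter and annotation are not given in the sources used here. The DU145 table has 23534 rows, of which 2 symbols occur more than once.

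Counts of all 9 DU145 libraries were fitted with edgeR 4.0.16 in R 4.3.3 (TMM factors, robust quasi-likelihood test, filterByExpr with a minimum of 10 counts and 15 in total, group as the only term), with Benjamini-Hochberg adjustment over 14908 genes and a threshold of 0.05. The SE of a fold change was derived from the F statistic. The common biological coefficient of variation was 12.3%. On simulated counts of the 9 libraries with 200 genes changed, 71 were recovered at 1.5-fold (35.5%, with 3 false calls among 14726 genes tested) and 154 at 2-fold (77.0%, with 14 false calls among 14718). The simulation changed far fewer genes than the 5956 called here and started from the mean of all 9 libraries. Its shares therefore do not give the recovery in this comparison. Line differences of the gRNA 10 effect were tested in a joint fit of 27 libraries over 16322 genes. Alternatives were RLE factors, DESeq2 1.42.0, no filter, a minimum of 10 counts in every library, only the 6 libraries, a replicate block, leaving out each library, and, added after seeing the data, leaving out mitochondrially encoded genes.

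Floors of 3 counts and 95% intervals of count ratios cover counting error only. The members and the 41 gene lists were chosen with earlier results of these data known. Named genes are the members of the NOD and RIPK2, NF-kB subunit and inhibitor lists, MYC, the 10 largest rises and falls with a mean of at least 100 counts in the higher group and no overlap, the 5 furthest from gRNA 2 in each direction, and the 4 largest called changes of each list with members that did not pass; CXCL8, CXCL2, CCL28, SOD2, C3, PTX3, PLAU, STEAP4, MYD88 and the members beyond the fourth of a list were chosen after their values were seen. Gene positions were matched by symbol for 14859 tested genes from RefSeq on GRCh38.p14, the same major build as hg38, and promoter sequences are from RefSeq. A few members of the lists are not reported here.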

Additional observations from a re-analysis of the deposited data

Results flagged for a closer look

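The effect of gRNA 10 in DU145 differed from its effect in the other lines for RIPK2 and for the NF-kB inhibitors and feedback regulators that changed in DU145, tested in the joint edgeR fit. For RIPK2 the log2 effect in DU145 exceeded that in 22Rv1 by 1.34 (adjusted p = 1.37e-08, edgeR) and that in PC3 by 0.89 (adjusted p = 1.68e-06, edgeR), since it was -0.29 in DU145, -1.63 in 22Rv1 and -1.15 in PC3. Of the 9 feedback genes with a value in all lines, 7 had a higher effect in DU145 than in 22Rv1 and 2 a lower one, and 6 had a higher effect than in PC3 and 3 a lower one. These 9 genes were taken because they changed in DU145, 7 of them higher and 2 lower, so the directions follow from that choice and are a description. For the same test over all 16322 genes, which were not chosen in that way, 44.7% differed from 22Rv1 and 48.1% from PC3.

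The effect in DU145 minus that in 22Rv1 was 1.00 for NFKBIA, 0.52 for NFKBIE, 2.40 for NFKBIZ, 1.40 for TNFAIP3, 1.14 for TNIP1, 1.31 for CYLD and 2.18 for ZC3H12A, with adjusted p of 0.00376 or less (edgeR). The negative differences from 22Rv1 were -2.60 for BCL3 (adjusted p = 1.11e-09) and -0.52 for N4BP1 (adjusted p = 0.000239, edgeR). N4BP1 and CYLD lie on chromosome 16 after its widest gap, where the medians with gRNA 10 were -0.44 in DU145, 0.03 in 22Rv1 and -0.08 in PC3. The part of these medians in the differences was not tested. Against PC3 the differences were 0.73 for NFKBIE, 2.09 for NFKBIZ, 2.74 for TNFAIP3, 1.49 for TNIP1, 0.44 for CYLD and 1.87 for ZC3H12A, with adjusted p of 0.0258 or less (edgeR), while NFKBIA at -1.29 (adjusted p = 3.63e-06), BCL3 at -1.29 (adjusted p = 1.31e-05) and N4BP1 at -0.87 (adjusted p = 1.86e-07) lay lower. NFKBIA thus rose more in PC3, where its log2 effect was 2.29, than in DU145, and BCL3 rose in 22Rv1 (2.10) and PC3 (0.83) but fell in DU145 (-0.49).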

How the results depend on the processing

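The number of genes changed against control was 5956; it was 5401 with the replicate block, 6192 with DESeq2, 5941 with RLE factors, 5934 with no filter and 9749 with only the 6 libraries, a fit without the spread of the gRNA 2 group. With a minimum of 10 counts in every library, genes past a log2 change of 1 fell from 1643 to 948, since that filter removes genes near 0 in a group. Leaving out each library in turn gave 4386 to 8859 changed genes, the highest without gRNA 2 replicate 3. Deviations of same-numbered gRNA 10 and control libraries correlated at 0.05, -0.07 and 0.07, and those of libraries with unlike numbers at -0.13 to 0.09. With 3 libraries in a group these values cannot tell whether the numbers pair the samples. Of 205 named genes tested, 183 were called and 160 of these were called in every alternative; 31 lost or gained the call in some alternative. Signs changed for 5 genes near 0 that were not called. Leaving out each library in turn moved CHUK between -0.018 and 0.045, MAP2K7 between -0.142 and 0.0077, RIPK4 between -0.068 and 0.00065, SLC15A4 between -0.021 and 0.036 and TAB1 between -0.041 and 0.030, and the SLC15A4 log2 fold change was -0.0054 with no filter on low counts. Leaving out mitochondrially encoded genes, an alternative chosen after seeing the data, gave 5933 changed genes. The 6 libraries hold 19782288 or more counts each, so genes at under 1 CPM rest on few counts.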
